A study of Homo sapiens with 8 samples.

Results

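The mRNA of CTNNB1 (RefSeq gene 1499, protein coding), which encodes beta-catenin, was examined for binding by G3BP1, an RNA-binding protein that nucleates stress granules. Its sites were taken as the plus-strand peaks of 2 deposited lists that lay inside a window of 41100 nt around the gene on chromosome 3 (hg19). The first began at position 41240999 and the last ended at 41281583. This gave 18 of 4346 peaks: 5 of the 2925 PDS peaks and 13 of the 1421 Ctrl peaks. The locus was chosen because it held more Ctrl than PDS peaks, so that its peak counts, and the values compared between the lists below, are a description and carry no test.

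The study mapped G3BP1 sites by seCLIP, which crosslinks RNA to the proteins bound to it, recovers the protein with an antibody (immunoprecipitation, IP) and sequences the attached RNA fragments, next to an input library without the antibody step. The cells were HEK293T, an established human embryonic kidney line, and the labels give no genetic modification for any group. The 8 libraries form 4 groups of 2 replicates. PDS-treated cells (20 µM for 12 h until crosslinking) gave IP and input libraries, and so did untreated cells (Ctrl). The labels do not spell out PDS, which in work on guanine quadruplexes usually means pyridostatin, a ligand that stabilises these folded structures of guanine-rich RNA or DNA. Each list combines both replicates of its condition. No value per replicate or read total was used here, so the spread between replicates and the depth behind each peak are unknown. Nothing in the labels says whether the replicates were separate cultures.

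Beta-catenin has a structural and a signalling role. At adherens junctions it links the cytoplasmic tails of cadherins to alpha-catenin and so to actin, and in the Wnt pathway it enters the nucleus and acts with TCF and LEF factors on target genes. Without a Wnt signal, a complex of axin, APC, GSK3 and casein kinase 1 marks the cytoplasmic protein for degradation, so that the amount of protein is known mostly for its control after translation; the peaks described here concern the mRNA. RefSeq lists 14 transcripts of the gene, 9 of them curated, and places no other gene over it. The pseudogene MRPS31P1 lies before it and ULK4 after it on the chromosome. These RefSeq entries were not placed on the hg19 window. The lists held 0 peaks on the minus strand inside the window. The nearest plus-strand peaks outside it were PDS peaks 2745131 nt before and 3766911 nt after its ends, so the choice of its borders did not decide which peaks were counted. Exons, introns and untranslated regions were not assigned here. Peaks are therefore placed by their distance from the start of the window, which was not checked against a gene start of that build. Distances between peaks are along the genome and would be shorter on the mRNA wherever an intron lies between them.

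Peaks fell near the start of the window and, for the greater part, near its end. When same-strand peaks of both lists within 500 nt of each other were joined, a distance set after the positions had been seen, they formed 8 stretches. All 8 held a Ctrl peak and 3 held a PDS peak. The last 7100 nt of the 41100-nt window, 17.3% of its length, held 3 of 5 PDS peaks and 11 of 13 Ctrl peaks. This boundary too was set after the positions were known.

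The first stretch lay 98 nt into the window. Here the PDS list held 2 abutting peaks (23.7% of all PDS peaks and 11.1% of all Ctrl peaks abut the previous one), at 41240999 to 41241084 with a log2 fold of IP over input of 3.50 and at 41241085 to 41241162 with a log2 fold of 4.10. The Ctrl list held 1 peak, at 41241072 to 41241160, with a log2 fold of 3.40. This was the stretch in which the PDS list had the larger number of peaks, and together its PDS peaks covered 164 nt, against 89 nt in Ctrl. The −log10 p was high for the fold in both lists: 46.6 and 52.1 in PDS and 31.5 in Ctrl.

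The second stretch was an isolated Ctrl peak of 103 nt at 41266111 to 41266213, the widest Ctrl peak of the gene, with a log2 fold of 3.996. The nearest PDS peak was 8806 nt away.

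The third stretch began 34119 nt into the window and held 2 PDS peaks and 3 Ctrl peaks. The PDS peak at 41275020 to 41275092 had a log2 fold of 4.58, and the Ctrl peak inside it, at 41275031 to 41275067, had 3.64. Next to them, the PDS peak at 41275141 to 41275248 had a log2 fold of 4.76 and the Ctrl peak inside it, at 41275153 to 41275210, had 4.73, the nearest to equal of all overlapping peaks of the gene. The other Ctrl peak of the stretch, at 41275288 to 41275345, was the weakest Ctrl peak of the gene by fold (log2 fold 3.22) and lay 39 nt beyond the PDS peak.

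The next 3 stretches were found in the Ctrl list alone, within 2332 nt of sequence that held 5 Ctrl peaks and no PDS peak. The peak at 41277235 to 41277296 had a log2 fold of 4.52 and the peak at 41277859 to 41277923 had 4.55. These lay among the most enriched 7.74% and 7.39% of the Ctrl list. The peaks at 41277938 to 41277990, 41278079 to 41278111 and 41279521 to 41279566 had log2 folds of 3.58, 3.33 and 3.51, in the middle and lower ranges of the list. From each of the 5 peaks the nearest PDS peak was between 1075 and 2651 nt away.

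The seventh stretch held the most enriched PDS peak of the gene. It was 159 nt long, at 41280642 to 41280800, had a log2 fold of 5.28 and a −log10 p of 57.0, and ranked 48th by fold among 2925 PDS peaks. In the Ctrl list the same place held 2 abutting peaks, at 41280641 to 41280684 with a log2 fold of 3.66 and at 41280685 to 41280745 with a log2 fold of 4.64. The PDS peak reached beyond both of them in the 3′ direction.

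The eighth stretch, 417 nt before the end of the window, was the most enriched Ctrl peak of the gene, at 41281499 to 41281583, with a log2 fold of 5.08 and a −log10 p of 30.6. It ranked 30th by fold among 1421 Ctrl peaks, and the nearest PDS peak was 698 nt away. In the whole Ctrl list, 84.2% of the 38 peaks with a log2 fold of at least 5 were overlapped by a PDS peak, and this CTNNB1 peak was among the 6 that were not.

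**Figure D1:**
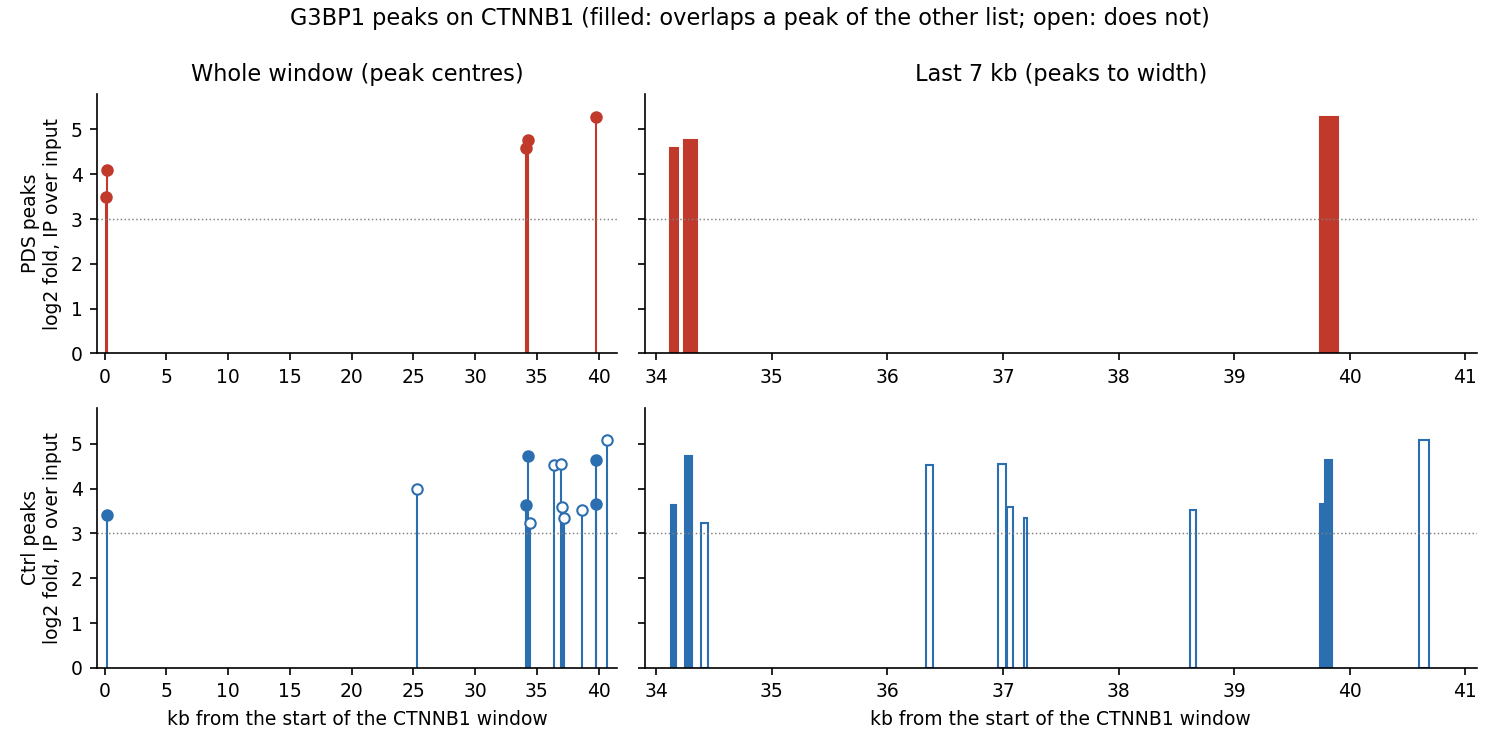
Deposited G3BP1 peaks of CTNNB1 in the PDS list (upper panels) and the Ctrl list (lower panels), placed by their distance in kb from the start of the window, with the height giving the log2 fold of IP over input. The left panels show the whole window by peak centres and the right panels its last part with peaks drawn to width; filled marks overlap a peak of the other list, open marks do not, and the dotted line is a log2 fold of 3. All 5 PDS peaks are filled, whereas 8 of the 13 Ctrl peaks are open, 7 of them in the last part.

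Each PDS peak of CTNNB1 met a Ctrl peak, though the overlap was partial for some. All 5 PDS peaks overlapped a Ctrl peak by at least 1 nt on the same strand, whereas 30.6% of all PDS peaks did so, and 45.2% of those in loci with peaks in both lists. Of 148 loci with at least 5 PDS peaks, 1.35% had every PDS peak overlapped, which is CTNNB1 and a single other locus. Both held 5 PDS peaks, the lowest number admitted, where full overlap takes the fewest peaks. CTNNB1 peaks were also joined over the whole window, whereas other loci were chained over gaps of up to 10000 nt. The share is therefore a description only. In CTNNB1 the first PDS peak shared 13 of its 86 nt. When each peak had to cover 50% of the other, 3 of the 5 PDS peaks were left. No share over all peaks is given at this stricter overlap, and the list shares here are for 1 nt. In the opposite direction, 5 of 13 Ctrl peaks of CTNNB1 (38.5%, exact Clopper-Pearson 95% interval 13.9 to 68.4%, covering counting error only) overlapped a PDS peak, against 51.5% of all Ctrl peaks and 64.8% of those in loci with peaks in both lists. The locus was picked for having more Ctrl than PDS peaks. This limits the share of its Ctrl peaks overlapped and favours overlap of its PDS peaks, so neither share carries a test. Among Ctrl peaks with a log2 fold of at least 4.5, 2 of 5 were overlapped in CTNNB1 (exact 95% interval 5.27 to 85.3%) and 66.4% in the whole list. Both intervals treat peaks as independent, although neighbouring peaks of 1 transcript are not replicates. They show only how few peaks were counted.

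Where both lists had peaks, PDS values were the higher ones. The 5 PDS and 5 Ctrl peaks formed 6 overlapping pairs, some of which share a peak. The log2 fold was higher in PDS in 6 of 6 pairs, and over all 1002 overlapping pairs of the lists it was higher in 64.9%. The differences (PDS minus Ctrl) ran between 0.02 and 1.62 with a median of 0.67, beside a median of 0.24 over all pairs. The smallest belonged to the second pair of the third stretch and the largest to the weaker Ctrl peak under the 159-nt PDS peak. The −log10 p was higher in PDS in 6 of 6 pairs, against 71.3% of all pairs, and the ratio of PDS to Ctrl had a median of 1.84 in CTNNB1 and of 1.42 over the 925 pairs without the stand-in value of 400. The PDS peak was the wider of the pair in 4 of 6, against 39.8% of all pairs. With 1 value per peak for both replicates, none of these differences can be set against replicate error.

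**Figure D2:**
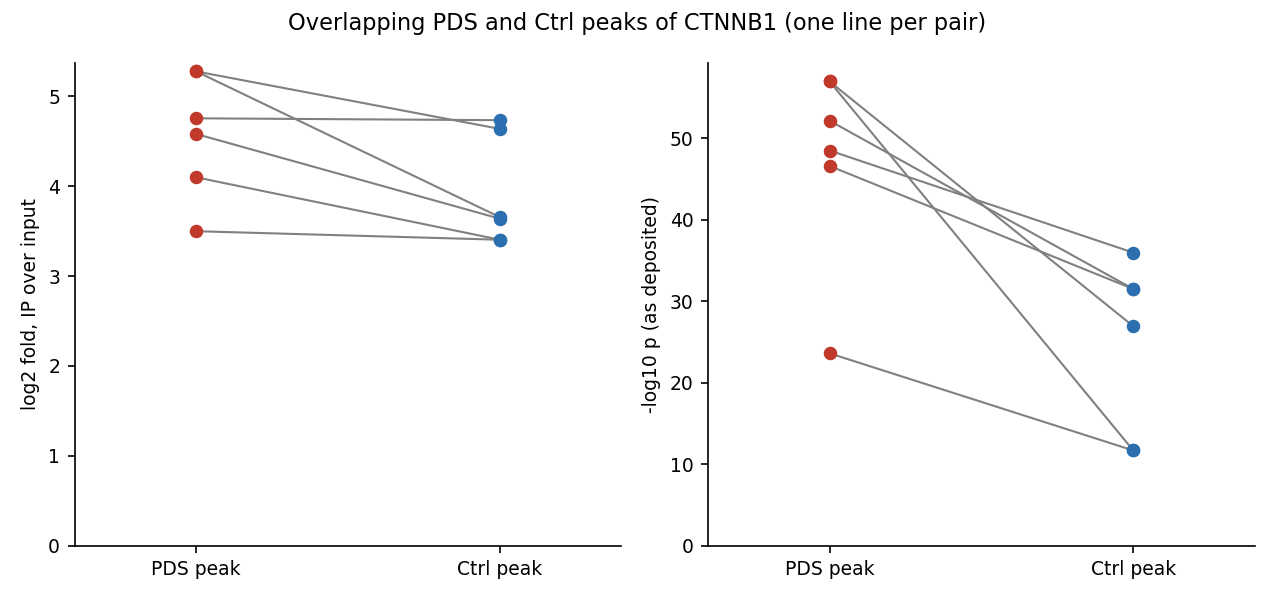
Log2 fold of IP over input (left) and −log10 p (right) of the overlapping peaks of CTNNB1, with the PDS peak on the left of each line and the Ctrl peak on the right, both as deposited. All 6 lines run downwards to the Ctrl peak; the 159-nt PDS peak and the first Ctrl peak each belong to 2 lines.

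Counted in bases, PDS peaks covered more than Ctrl peaks where both were present, and less over the gene as a whole. In the 3 stretches with peaks in both lists, PDS peaks covered 504 nt and Ctrl peaks 347 nt, a ratio of 1.45. In the other 5 stretches PDS peaks covered 0 nt and Ctrl peaks 447 nt. Since the stretches were divided by whether they held a PDS peak, the 0 nt was fixed in advance. The division also favours PDS in the ratio of 1.45, which is a description only and was not taken for other loci. Over all 8 stretches this gave 504 nt in PDS against 794 nt in Ctrl. The bases in common numbered 288, which is 57.1% of the PDS length and 36.3% of the Ctrl length, and 4 of the 13 Ctrl peaks lay wholly inside PDS peaks. These measures are not given over all peaks of the lists, so nothing particular to CTNNB1 is read from them.

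Most CTNNB1 peaks of the PDS list were strong by fold for that list, though the weakest lay below the list median. The 5 PDS peaks of CTNNB1 had a median log2 fold of 4.58 (range 3.50 to 5.28), against 3.66 (3.22 to 5.08) for the 13 Ctrl peaks. The whole lists had medians of 3.59 in PDS and 3.52 in Ctrl. A log2 fold of at least 4 was reached by 4 of 5 PDS peaks and by 5 of 13 Ctrl peaks of CTNNB1, and by 27.6% of all PDS and 22.0% of all Ctrl peaks. The median −log10 p of CTNNB1 peaks was 48.5 in PDS and 11.7 in Ctrl, where the whole lists had 17.8 and 11.9.

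Within the Ctrl list, peaks with and without a PDS partner differed little in fold and more in −log10 p. The 5 overlapped Ctrl peaks had a median log2 fold of 3.66 (range 3.40 to 4.73) and the 8 others 3.79 (3.22 to 5.08), with wide overlap between the sets. In the whole Ctrl list the order was the other way, with medians of 3.63 for overlapped and 3.43 for other peaks. The −log10 p had a median of 26.9 (range 11.7 to 36.0) in the overlapped and 8.75 (5.49 to 30.6) in the other Ctrl peaks of CTNNB1. In the whole Ctrl list the order was the same, with medians of 15.4 for overlapped and 9.55 for other peaks.

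At a like fold, most Ctrl peaks without a PDS partner had low −log10 p. Each peak was set beside the peaks of its own list whose log2 fold lay within 0.1 of its own, a comparison chosen after the values had been plotted. Of the 8 Ctrl peaks without a partner, 8 had a −log10 p in the lower part of that set, higher than a median of 5.66% of it (range 0 to 48.9%). In the whole Ctrl list, 446 of 686 peaks without a PDS partner (65.0%) lay in the lower part too. The isolated peak at 41266111 was the extreme case: its −log10 p was 9.35, below all 109 Ctrl peaks of like fold, whose median was 15.5. The 5 overlapped Ctrl peaks were higher than a median of 55.6% (49.7 to 97.1%). The first Ctrl peak stood highest, with a −log10 p of 31.5 where Ctrl peaks of like fold had a median of 9.63. The 5 PDS peaks, all overlapped, were higher than a median of 72.9% of PDS peaks of like fold (9.65 to 96.0%). The lowest of them, at 41275020, had a −log10 p of 23.6 where PDS peaks of like fold had a median of 35.0. Over the whole Ctrl list the same measure had a median of 34.3% for peaks without a PDS partner and 64.9% for those with one, so that the direction seen in CTNNB1 was also that of the list. At a given fold, −log10 p depends on how many reads stand behind a peak. Those numbers are not in the columns used here, and their part in which CTNNB1 peaks recur in the PDS list was not tested.

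**Figure D3:**
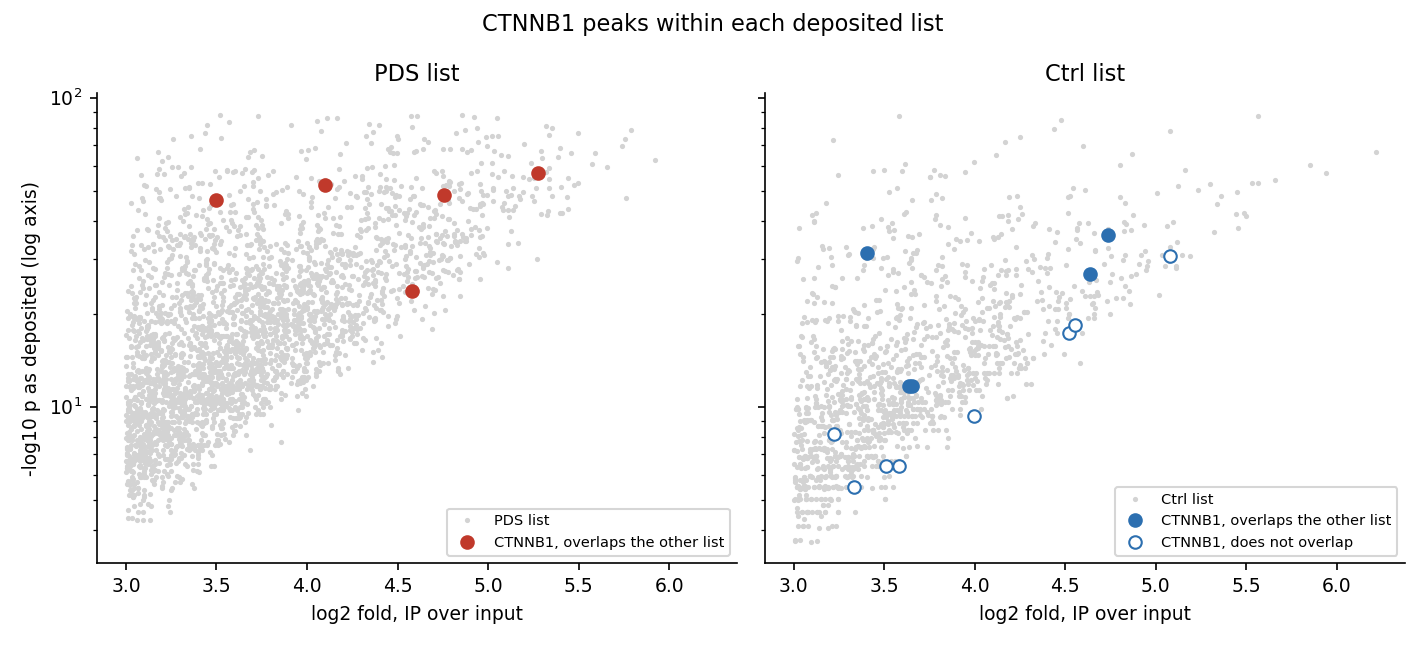
Each peak's log2 fold of IP over input against its deposited −log10 p (log axis) in the PDS list (left) and the Ctrl list (right). Each panel shows its own list in grey, with peaks at the stand-in value of 400 left out. Peaks of CTNNB1 are in colour, filled where they overlap a peak of the other list and open where they do not. The open Ctrl marks have −log10 p between 5.49 and 30.6, and most lie near the lower edge of the grey cloud. The filled Ctrl marks lie inside it or near its upper edge.

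Absence from the PDS list does not measure an absence of binding. The lowest log2 fold was just above 3 in both lists, and the lowest −log10 p was 4.31 in PDS and 3.66 in Ctrl. The limits used for listing are not given, so a bound site with lower values in PDS could be missing from the list. The level of CTNNB1 mRNA in either condition was not measured here. For 4 of the 8 Ctrl peaks without a partner the Ctrl log2 fold was itself between 3.22 and 3.58. For the other 4 it was between 3.996 and 5.08.

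For background, the same counts were taken over the other loci of the lists. Same-strand peaks of either list no more than 10000 nt apart were grouped, and all CTNNB1 peaks were joined, which gave 1191 loci. More Ctrl than PDS peaks were found in 24.9% of them, in 13.0% of the 424 loci with peaks in both lists and in 8.24% of the 85 loci with at least 10 peaks. The locus had been picked by this difference, so these shares are given as background and nothing is read from them. CTNNB1 had 8 more Ctrl than PDS peaks, and the next largest Ctrl excess was 6. With a minimum log2 fold of 4 and a minimum −log10 p of 5, a setting applied to all loci after the data had been seen, CTNNB1 held 4 PDS and 5 Ctrl peaks, and 84 other loci had an excess at least as large as its 1 peak. By number of Ctrl peaks CTNNB1 ranked 8th, tied with 1 other locus. The 8 other loci with at least as many Ctrl peaks held between 21 and 72 PDS peaks, where CTNNB1 held 5.

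Likeness to CTNNB1 was measured by the share of Ctrl peaks among all peaks of a locus, over those 85 loci. CTNNB1 had been picked by these counts, so nothing is read from its rank. Its share of Ctrl peaks was 72.2%, the highest of the 85. The closest lay on chromosome 19 (minus strand, 49119166 to 49120640), with 5 PDS and 9 Ctrl peaks (64.3% Ctrl). As in CTNNB1, all 5 of its PDS peaks overlapped a Ctrl peak, but so did 7 of its 9 Ctrl peaks, against 5 of 13 in CTNNB1. Next came a locus on chromosome 16 (minus strand, 27472785 to 27481475) with 6 PDS and 8 Ctrl peaks, and another on that chromosome (minus strand, 28855312 to 28857573) with 9 PDS and 11 Ctrl peaks, tied with a locus on chromosome 3 (plus strand, 58106972 to 58135722). Of loci with more Ctrl than PDS peaks, the largest by Ctrl peaks after CTNNB1 were these tied loci on chromosomes 16 and 3, followed at 9 Ctrl peaks by the chromosome 19 locus and a locus on chromosome 12 (plus strand, 6643703 to 6647126) with 8 PDS peaks. The highest log2 folds of these 4 loci were between 4.19 and 5.09 in PDS and between 4.13 and 4.95 in Ctrl, all below the 5.28 in PDS and 5.08 in Ctrl of CTNNB1. None of these loci is named here, because gene annotation of the build was not used.

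**Figure D4:**
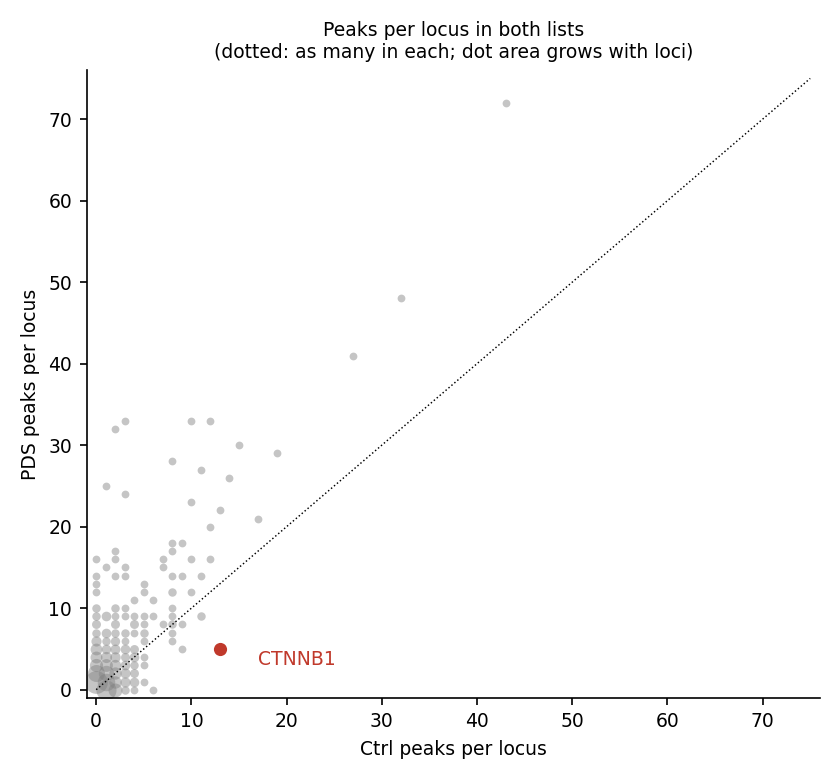
Number of PDS peaks (vertical axis) against Ctrl peaks (horizontal axis) in each of 1191 loci, with CTNNB1 in red at 5 PDS and 13 Ctrl peaks and the other loci in grey, dots growing with the number of loci at a position. Most loci with many peaks lie above the dotted line of equal counts, and CTNNB1 lies the farthest below it.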

How the data were processed

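The authors deposited 1 peak list per condition, combining both replicates. The submitters' processing notes name cutadapt, UMI-tools, STAR and hg19; how peaks were called and filtered, and how the replicates were joined, is not given in the sources used here. The lists have no header. Column 4 was read as the deposited −log10 p of each peak and column 5 as the authors' deposited log2 fold of IP over input, both inferred from the values and the usual eCLIP layout. A −log10 p of 400 was read as a stand-in value (82 PDS and 8 Ctrl peaks, none in CTNNB1). Starts were treated as counted from 0 and are printed counted from 1.

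Peaks were compared by same-strand overlap of at least 1 nt and chained or merged by distance (python 3.11.15, numpy 2.4.6, scipy 1.17.1). These steps were tested on simulated data. Named items followed a fixed rule: all CTNNB1 peaks, the 3 other loci with the highest Ctrl share among those with at least 10 peaks, and the 3 other loci with most Ctrl peaks among those with more Ctrl than PDS peaks. The gene, lists and comparisons were chosen with earlier results of these data known. Peak sequences, transcript regions, quadruplex patterns and a list of Wnt and cadherin genes, all planned, were not analysed here, since an hg19 genome and annotation were not used. Alternatives were merging, a stricter threshold, a shortened PDS list, covered bases, other overlap definitions and other locus gaps.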

Additional observations from a re-analysis of the deposited data

How the results depend on the processing

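Under the alternatives, 19 of 24 values remained near those reported (within 1.5 times for counts and ratios, inside the main exact 95% interval for percentages, within 1 SD over peaks for medians). The other 5 moved, and none turned the direction. All 5 that moved were values of CTNNB1, while the shares over all loci and over loci in both lists remained near. The share of CTNNB1 Ctrl peaks overlapped was 38.5%, and 23.1% when each peak had to cover 50% of the other. That fall was counted as near because the interval is wide. Merging peaks within 50 nt left 3 PDS and 11 Ctrl regions. The stricter threshold (log2 fold of at least 4 and −log10 p of at least 5) left 4 PDS and 5 Ctrl peaks, a PDS to Ctrl ratio of 0.80 where the main one was 0.385, so the Ctrl excess was mostly made of peaks under that threshold. In covered bases the ratio was 0.635. Requiring each peak to cover 50% of the other left 3 of 5 PDS peaks overlapped. With the PDS list shortened to its 1421 highest folds, 4 PDS peaks of CTNNB1 remained. No paired analysis was possible because each list gives 1 value per peak for both replicates together, and leaving out a replicate was not possible either. Since depth is unknown, a site missing from the PDS list cannot be read as unbound.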

Other observations

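Several Ctrl peaks of CTNNB1 shared their −log10 p exactly with other peaks of the list. The peaks at 41277938 and 41279521 had the same value of 6.44, held by 21 Ctrl peaks in all, whose log2 fold ran between 3.16 and 3.60. The peaks at 41275031 and 41280641 had the same value of 11.7, held by 4 Ctrl peaks. No 2 PDS peaks of CTNNB1 had the same value. Over the whole lists, 1464 of 2843 PDS peaks and 979 of 1413 Ctrl peaks below 400 shared their −log10 p with another peak of their list.

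The isolated Ctrl peak at 41266111 had the highest log2 fold, 3.996, of the 15 Ctrl peaks with its −log10 p of 9.35. The weakest Ctrl peak by −log10 p, at 41278079 (5.49), shared that value with 25 other Ctrl peaks.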
